A study of Mus musculus with 8 samples.

Results

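Cytosolic ribosomal protein genes were taken from the table of read counts as the protein coding genes named Rpl or Rps with a number (and the endings a, x, l, al, l1 or rt), *Rplp0* to *Rplp2* and *Rpsa*. This rule found 84 of the 54532 genes in the table: 49 large subunit genes, 32 small subunit genes and the 3 genes of the P stalk. *Rps3a1*, *Fau* and *Rack1* code for further proteins of the ribosome whose names the rule does not reach, and they are given beside the 84 where they bear on a result. The cells were mG+ (membrane GFP) cells sorted by FACS from female mice aged 8 months, all of which carried Tie2e-cre, a Cre driven by an endothelial promoter, and the mTmG reporter. WT mice were Tie2e-cre; TERT+/+; mTmG and EC-*Tert*-KO mice were Tie2e-cre; TERTfl/fl; mTmG. RNAseq was made from subcutaneous adipose tissue (SAT) of mice on a high fat diet (HFD) and from SAT, visceral adipose tissue (VAT) and gastrocnemius muscle of mice on chow, with 1 library for each genotype, tissue and diet. Whether a library pooled several mice is not given in the sources used here.

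A ribosome holds 1 copy of nearly every ribosomal protein, and the genes are expressed in all cell types, at high levels. Their mRNAs begin with a 5′ terminal oligopyrimidine tract, through which mTORC1 and LARP1 set their translation. Several genes have a second copy, such as *Rpl3l* of striated muscle and *Rpl10l* and *Rpl39l* of testis, and mammalian genomes carry many processed pseudogenes of this family.

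The start of a gene is where that tract lies, and 30 bases around the RefSeq start (20 before it and 10 from it on, 5′ to 3′, GRCm38.p6) are shown for 6 genes, as examples of starts that fall on a tract and of starts that do not. Capitals mark the pyrimidines that run unbroken from the annotated start.
Rps6, chr4:86857358-86857387, minus strand: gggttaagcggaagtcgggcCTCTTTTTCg
Rps10, chr17:27635235-27635264, minus strand: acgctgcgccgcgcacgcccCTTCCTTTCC
Rps27, chr3:90213639-90213668, minus strand: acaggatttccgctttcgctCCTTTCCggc
Rps27rt, chr9:114982730-114982759, minus strand: ggttaagaacttatcccttgCTTTCCggcg
Rplp0, chr5:115559447-115559476, plus strand: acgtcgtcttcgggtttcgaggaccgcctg
Rpl24, chr16:55966255-55966284, plus strand: taggaagaaagctgttgctaggaaacagac
The first 4 begin with such a tract of 6 to 10 pyrimidines, while the annotated starts of *Rplp0* and *Rpl24* do not fall on one. *Rps15*, *Rps19*, *Rpl5*, *Rpl11*, *Rpl22*, *Rpl22l1* and *Rps27l*, which are named in later results and not printed here, also had no pyrimidine at any annotated start. Start windows were found for 64 of the 84 genes, 76 windows in all. A C followed by 4 further pyrimidines at the annotated start was present in 14 of the 76 (18.4%) and in 2.51% of all 32851 windows. A C with at least 6 further pyrimidines, sought from 10 bases before to 15 after the start, was in 30 of the 76 (39.5%). It was in 11.4% of all windows, so a tract can lie beside an annotated start that does not fall on it. The motif CTTCCG, searched on both strands from 100 bases before to 50 after the start, was in 35 of the 76 (46.1%) and in 11.8% of all windows. AAGATGG was in 11.8% against 3.48%, and TATAAA in 7.89% against 6.94%. These are matches of letters near annotated starts and say nothing of binding.

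Library totals ran from 6214269 to 18855772 counts, and 16034 to 24688 genes had at least 1 count. *Tert* itself was lower in KO in HFD SAT (114 counts in WT, 0 in KO), chow SAT (70 and 11) and muscle (24 and 7). The VAT pair had 3 counts in WT and 9 in KO, too few to give a direction (log2 ratio 0.90, -1.02 to 3.50). *Tert* thus does not bear out the labels of this pair. Every direction drawn from VAT below is that of the library labelled KO over the library labelled WT. All 19 endothelial markers were detected in every library, and their summed level ran from 496 to 1077 CPM (counts per 1e6, scaled between libraries) in SAT and from 2713 to 3960 CPM in VAT and muscle. B cell markers (8 of 8 detected everywhere) summed to between 697 and 4464 CPM and T cell markers (10 of 10) to between 263 and 4297 CPM, both lists with their highest value in chow SAT WT. Neutrophil markers summed to 28466 and 32970 CPM in the muscle libraries and to at most 509 CPM elsewhere, and macrophage markers to 16461 and 16071 CPM in VAT and to at most 5808 CPM elsewhere. Stromal markers (14 of 14 detected everywhere) summed to between 1063 and 4229 CPM, above the endothelial sum in all 4 SAT libraries, and mural markers (7 to 10 of 10) to between 71.7 and 748 CPM. Markers of other cell types were thus present beside the endothelial ones. In bulk RNA, fewer cells of a type and less RNA per cell cannot be told apart.

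The share of all counts that fell on the 84 genes was first compared between libraries. In HFD SAT it was 6.69% (WT) and 6.22% (KO). In chow SAT it was 13.01% and 5.26%, in the VAT libraries 2.76% and 3.28%, and in muscle 5.24% and 4.31%. chow SAT WT stood highest and both VAT libraries lowest. Exact (Clopper-Pearson) 95% intervals of these shares, which cover counting error only, were narrow: 12.99% to 13.02% in chow SAT WT and 2.75% to 2.77% in the VAT library labelled WT. The KO share was 1.07-fold lower in HFD SAT, 2.48-fold lower in chow SAT, 1.19-fold higher in VAT and 1.21-fold lower in muscle. Over the 4 pairs the log2 ratio averaged -0.36 ± 0.67 (SD, n = 4 pairs), lower in KO in 3 of 4. A 2-sided exact sign-flip permutation test over the pairs gave p = 0.375; with 4 pairs it cannot go below 2 of the 16 sign patterns. Without the chow SAT pair the mean was nearer to 0, at -0.05.

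**Figure D1:**
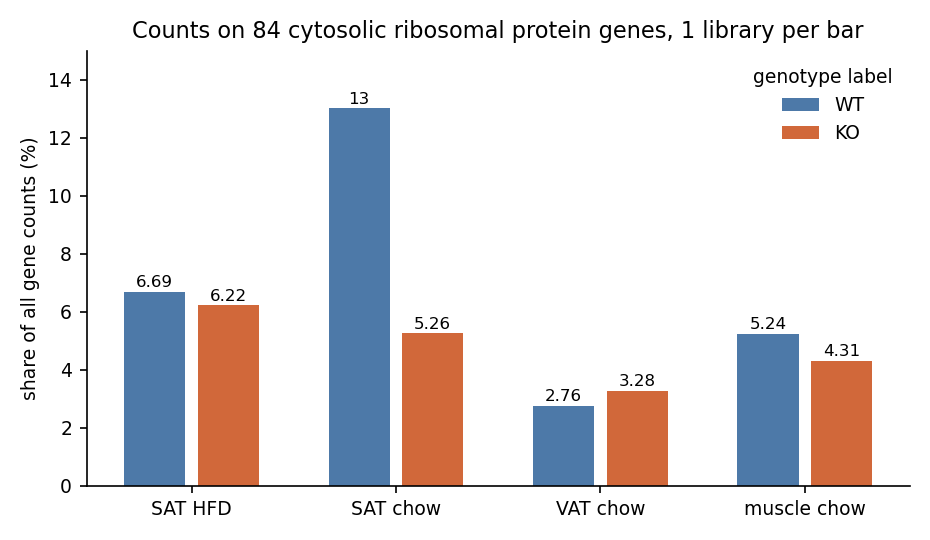
Share of all gene counts in percent (vertical axis) on the 84 genes, with 1 bar per library, blue for WT and orange for KO, in the 4 pairs of tissue and diet. The chow SAT WT bar, at 13.01%, stands above the other 7, which lie between 2.76% and 6.69%; counting intervals are too narrow to draw.

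Each gene was next compared within each pair. Ratios of KO to WT were taken on the log2 scale from TMM-scaled CPM, adding a prior count of 0.5, and a gene was called where its 95% counting interval lay beyond 2-fold. With 1 library a group this has no replicate check, and it describes those libraries. Of the 84 genes, 81 averaged 10 counts or more in every pair. The other 3 were *Rpl3l*, *Rpl10l* and *Rpl39l*.

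In chow SAT, 79 of the 81 genes were lower in KO, with a median log2 ratio of -1.53 beside 0.00 over the 16908 genes tested. Among them 74 were called lower, where 11.5% of all genes tested were called lower. With the trend of the ratio on gene length removed, the median was -0.996 beside 0 over all genes, and 38 genes were called. The share of all genes called after this correction is not given here, so the 38 have no background to be read against. The large subunit (median -1.48 over 46 genes), the small subunit (-1.54 over 32) and the P stalk (-1.51 over 3) moved together. *Rplp0*, the P stalk base protein, had 105299 counts in WT and 36300 in KO, a log2 ratio of -1.53 (-1.55 to -1.52). *Rps6*, whose protein S6 kinase phosphorylates, had 60528 and 21423 counts (-1.50, -1.52 to -1.47). *Rps19*, mutated in Diamond-Blackfan anaemia, had 31246 and 10221 counts (-1.61, -1.64 to -1.58). Both of these lay close to the median of the group. *Rpl5* and *Rpl11*, whose free proteins bind MDM2, were at -1.45 and -1.55. The lowest values were those of *Rps27a*, which codes for a ubiquitin fusion (21673 and 3383 counts, -2.68), *Rpl17* (21230 and 3936, -2.43) and *Rpl30* (18968 and 3976, -2.25). At the other end, *Rps27l* had 382 and 275 counts (-0.47), and *Rpl24* and *Rps10* alone went up, from 35 to 91 counts (1.37, 0.80 to 1.99) and from 75 to 228 (1.60). *Rps10* was the 1 gene called higher, where 19.1% of all genes were. The WT library of this pair also had the highest T cell and B cell marker sums (4297 and 4464 CPM, against 1731 and 2801 CPM in KO), while stromal markers went from 2114 CPM in WT to 4229 in KO and mural markers from 71.7 to 236 CPM. The nuclear RNA *Malat1* was at 4827 counts in WT and 96834 in KO, or 299 and 6005 CPM. In the libraries of the other pairs it lay between 2176 and 5186 CPM, so the WT library was the one far from the rest. The part of these in the result was not tested.

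In HFD SAT the difference was smaller: 64 of 81 genes were lower in KO, the median was -0.17 beside 0.06 over 15839 genes, and 3 genes were called. *Rpl17* was called lower (3001 and 2329 counts, -1.27, -1.35 to -1.19), where 10.9% of all genes were. *Rpl34* (914 and 5113 counts, 1.58, 1.48 to 1.68) and *Rpl7a* (372 and 1878, 1.43, 1.27 to 1.60) were called higher, where 12.9% of all genes were. *Rpl36al*, the next highest at 0.75, rested on 11 and 35 counts, with an interval of -0.25 to 1.89. *Rpl35a* (1971 and 1857 counts, -0.99) and *Rpl21* (1117 and 1094, -0.93) followed *Rpl17* at the low end. *Rplp0* (16502 and 30966 counts), *Rpsa* (17288 and 32792) and *Rpl5* (8456 and 16115) differed by at most 0.03 after scaling, with intervals that include 0. The other genes fixed as examples, *Rpl11* (-0.37), *Rps27a* (-0.37), *Rps19* (-0.16) and *Rps6* (-0.09), were lower in KO.

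In VAT the direction was the opposite, with 74 of 81 genes higher in the library labelled KO and a median of 0.25 beside 0.01 over 16439 genes. One gene passed the 2-fold rule, *Rpl17* (733 and 2432 counts, 1.13, 1.01 to 1.25), where 2.4% of all genes were called higher. This call was lost under 4 of 5 other scalings and with the length trend removed, which also brought the median to 0.12. *Rpl34* (1235 and 3564 counts, 0.93) and *Rps12* (1889 and 4762, 0.73) came next. *Rpl24* (33 and 31 counts, -0.68), *Rps10* (69 and 71, -0.56) and *Rps18* (3418 and 4569, -0.18) were lowest. No gene of the group was called lower, where 2.09% of all genes were. The 3 P stalk genes had a median of 0.39. Mural markers summed to 184 CPM in the library labelled WT and 748 in that labelled KO, stromal markers to 1566 and 2883 CPM, B cell markers to 697 and 1097 CPM and endothelial markers to 3517 and 2713 CPM. The part of these in the result was not tested.

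In muscle, 75 of 81 genes were lower in KO, the median was -0.42 beside 0.00 over 16967 genes, and the interquartile range over the genes was only 0.16. One gene was called, *Rpl21* (3092 and 831 counts, -1.63, -1.74 to -1.52), where 2.01% of all genes were called lower. *Rps18* (14031 and 5992 counts, -0.96) and *Rpl7a* (3598 and 1752, -0.77) were the next lowest. *Rps27a* (3363 and 4377 counts, 0.64), *Rpl17* (2622 and 3216, 0.56) and *Rpl24* (42 and 49, 0.48) were highest, and none of the group was called higher, where 2.76% of all genes were. Well-expressed genes leaned the same way: of the 3519 genes that averaged 1000 counts or more in this pair 27.7% were higher in KO, with a median of -0.16. Stromal markers went from 1063 CPM in WT to 1714 in KO, mural markers from 180 to 384 CPM and erythroid markers from 691 to 111 CPM, and their part in the result was not tested.

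Across the pairs, 56 of the 81 genes were higher in the VAT library labelled KO and lower in KO in the other 3 pairs, 4 were lower in all 4, and none was higher in all 4. The same patterns were not counted over all genes, so these counts have no background to be read against. They restate the direction of most genes in each pair and are not a separate result. The 81 genes were less spread than well-expressed genes at large in chow SAT, VAT and muscle, and about as spread in HFD SAT. The SD of the log2 ratio over the 81 was 0.41 in HFD SAT, 0.56 in chow SAT, 0.25 in VAT and 0.30 in muscle, where all well-expressed genes (mean of 1000 counts or more) had 0.42, 1.07, 0.37 and 0.38. Outside the rule, *Rps3a1*, *Fau* and *Rack1* were close to the group's median in chow SAT (-1.48, -1.50 and -1.53 on the log2 scale) and in muscle (-0.54, -0.49 and -0.52).

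**Figure D2:**
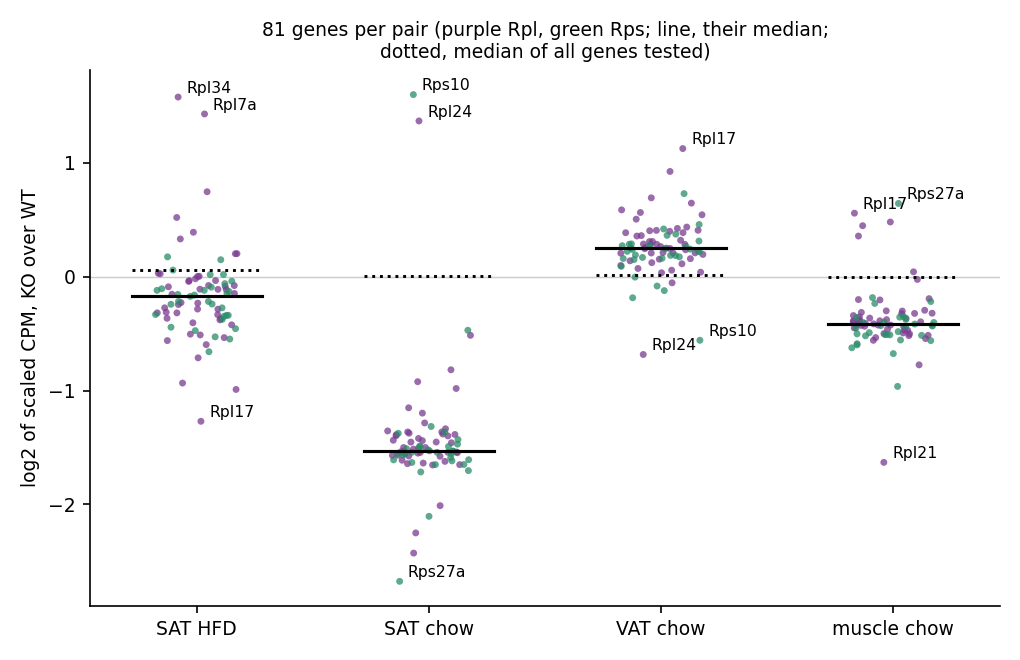
Log2 ratio of scaled CPM, KO over WT (vertical axis), for the 81 genes in each of the 4 pairs, with 1 point per gene (purple Rpl, green Rps), their median as a solid line and the median of all genes tested as a dotted line. The solid line lies at -0.17, -1.53, 0.25 and -0.42, and the genes far from it are often the same: Rpl17, Rpl34, Rps10 and Rpl24.

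The genes at the edges were then read beside pseudogenes, because a read from a shared stretch of sequence can be given to either. Of the 84 genes, 60 have a pseudogene in the table that bears their name. In addition, 81 of the 84 share at least one 50-base stretch with a transcript of another gene in GENCODE M21, and the median gene shares 34.0% of its 50-base stretches. How the authors' counting treated reads with several matches is not given in the sources used here, and its part in the values below was not tested.

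*Rpl34* and its pseudogene *Rpl34-ps1* went in opposite directions in HFD SAT, VAT and muscle, and both were lower in KO in chow SAT. The pseudogene had 3737 counts in HFD SAT WT and 1916 in KO, 13776 and 1763 in chow SAT, 2001 and 1814 in VAT and 5161 and 866 in muscle. It held 80.3% of the summed counts in HFD SAT WT and 27.3% in KO, 56.4% and 19.1% in chow SAT, 61.8% and 33.7% in VAT, and 52.9% and 14.2% in muscle, so the share was lower in KO in all 4 pairs. Counted together, *Rpl34* and its pseudogene had log2 ratios of -0.31, -1.40, 0.13 and -0.42, in place of 1.58, -0.51, 0.93 and 0.45 for the gene alone. Each sum lies nearer to the median of the 81 genes than the gene alone does.

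*Rpl17* showed the same split, with no fixed direction. Its pseudogenes held 64.3% and 81.1% of the counts in HFD SAT, 53.6% and 73.7% in chow SAT, 83.1% and 64.4% in VAT and 83.2% and 64.9% in muscle, WT first. The sums had log2 ratios of -0.35, -1.61, 0.05 and -0.50, where *Rpl17* alone had -1.27, -2.43, 1.13 and 0.56. *Rpl17-ps10* and *Rpl17-ps3* carried most of them, with 11982 and 11624 counts in chow SAT WT.

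*Rps10* is at very low counts for a small subunit protein, between 69 and 228 a library, while *Rps10-ps2* had between 923 and 9572. Its pseudogenes held between 93.1% and 99.3% of the summed counts in every library. The sum went down in chow SAT KO, at -1.57, where the gene alone went up at 1.60. For *Rpl7a* the sum in HFD SAT was 0.62, against 1.43 alone, and for *Rpl21* in muscle it was -0.80, against -1.63 alone. Summing did little for *Rps27a*, *Rps18* and *Rpl35a*, whose named pseudogenes held at most 3.9% of the counts in any library. The values of these genes in chow SAT were -2.66, -2.07 and -1.15 as sums. They share 49.4%, 79.4% and 28.1% of their 50-base stretches with other genes, with *Gm8430*, *Gm11361* and *Gm10243* first among the sharers. Those 3 do not bear their names, so their counts were not added, and their part in the values was not tested. With every gene summed in this way, the SD over the 81 was 0.28 in HFD SAT (0.41 for genes alone), 0.40 in chow SAT (0.56), 0.19 in VAT (0.25) and 0.22 in muscle (0.30). The medians were then -0.22, -1.53, 0.25 and -0.42, and none of the genes outside chow SAT was called.

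**Figure D3:**
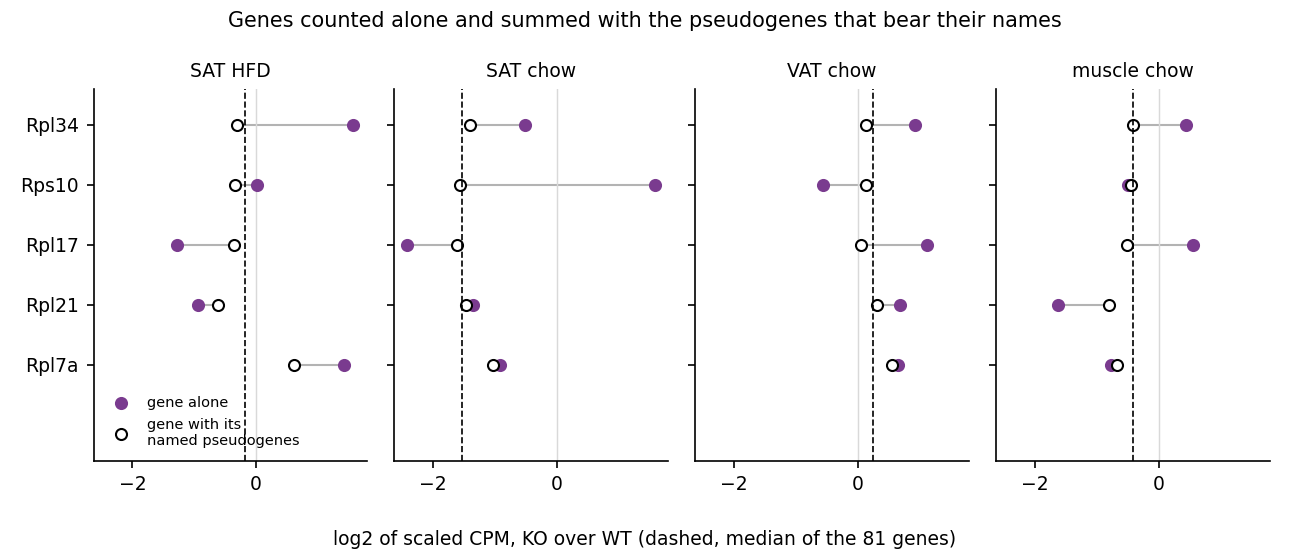
Log2 ratio of scaled CPM, KO over WT (horizontal axis), of 5 genes in each pair, counted alone (purple) and summed with the pseudogenes that bear their names (open circles); the dashed line is the median of the 81 genes. Rps10 in chow SAT goes from 1.60 to -1.57 and Rpl34 in HFD SAT from 1.58 to -0.31, both next to the dashed line.

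Levels were compared between genes as CPM per kb of gene length, since a long gene collects more reads. *Rplp1*, of the P stalk, had the highest mean level (2690 CPM per kb, geometric mean of the 8 libraries), followed by *Rplp0* (1319) and *Rps15* (1179). *Rplp1* ran from 6070 to 61969 counts a library and *Rps15* from 3491 to 35850. Over the 80 genes with at least 10 counts in every library, the median level was 919 CPM per kb in chow SAT WT, between 295 and 338 in chow SAT KO, both HFD SAT libraries and muscle WT, 234 in muscle KO, and 157 and 199 in the VAT libraries labelled WT and KO. The 10 genes with most counts held between 28.9% and 31.4% of the group's counts in every library. The order of the 80 genes by level was much the same in all libraries: Spearman's rho across genes was between 0.951 and 0.985 for the 28 pairs of libraries. This is a description, since the libraries share gene lengths and base composition.

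The 3 lowest of these 80 genes were *Rpl24* (2.60 CPM per kb, 11 to 91 counts), *Rps10* (4.08) and *Rpl7l1* (14.5, 246 to 1751 counts). *Rpl24* overlaps the gene *Gm28037* on the same strand over 47.0% of its exonic bases, and 81.7% of its 50-base stretches occur in other genes. *Rps10* overlaps *RPS10-NUDT3* over 20.6%, *Rpl13a* overlaps *Gm45713*, *Mir5121* and *Snord33* over 35.4% together, and *Rpl36al* overlaps *Gm49383* over 24.5%. These 6 overlapping genes had 0 counts in every library, apart from *Gm28037* with 3 in muscle KO. *Rpl13a* itself was at 16.2 CPM per kb and *Rpl36al* at 1.004. What these 4 genes have in common is thus a same-strand neighbour over 20.6% or more of their exonic bases and a level among the lowest of the group.

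Relative to the median of the group in each library, a gene's log2 level had an SD over the 8 libraries of 0.14 for the median gene. It was largest for *Rpl24* (1.13), *Rps10* (1.10), *Rps27l* (0.89), *Rpl7a* (0.73), *Rpl34* (0.69), *Rpl21* (0.62) and *Rpl17* (0.56). The share of a gene's 50-base stretches found in other genes did not order this spread: Spearman's rho across the 80 genes was -0.03, and 22 genes with over 50% shared had a median SD of 0.13, against 0.16 for the 7 with at most 10%.

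**Figure D4:**
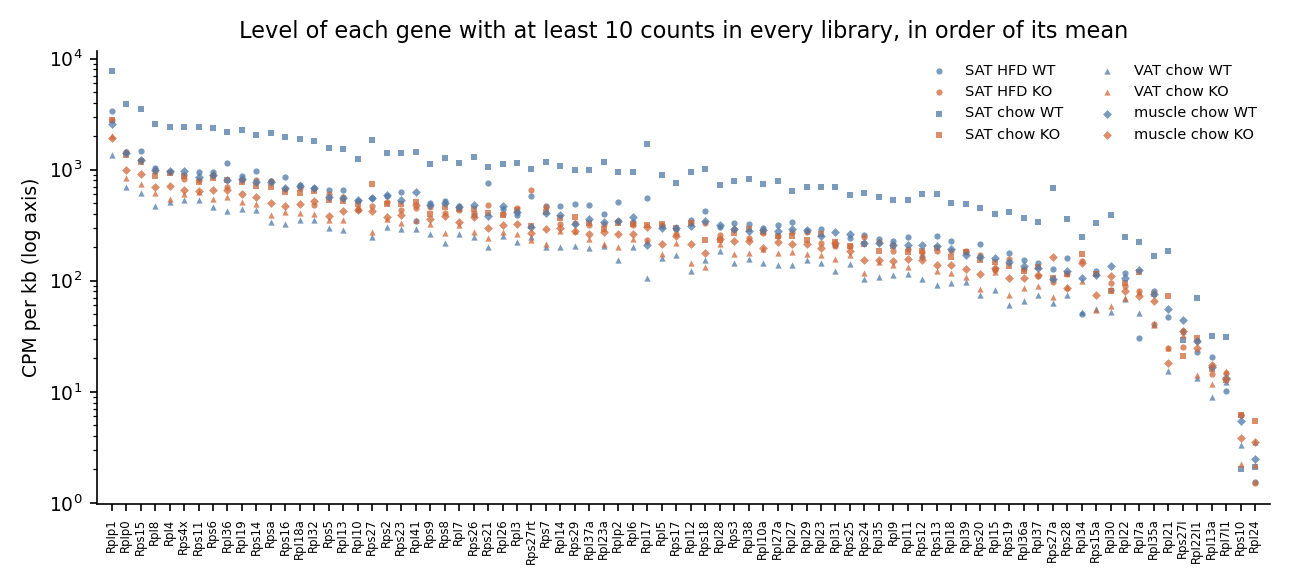
Level in CPM per kb (vertical log axis) of the 80 genes with at least 10 counts in every library, in order of their mean, with 1 symbol per library (circle SAT HFD, square SAT chow, triangle VAT, diamond muscle; blue WT, orange KO). chow SAT WT is uppermost for most genes, the order of genes is shared by the libraries, and Rps10 and Rpl24 lie at 4.08 and 2.60 CPM per kb on average.

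Paralogues known for restricted expression were low or absent. *Rpl10l*, expressed in male germ cells, had 0 counts in all 8 libraries, where 3 counts would be between 0.18 and 0.43 CPM. *Rpl3l*, which replaces *Rpl3* in striated muscle, had 5 and 0 counts in HFD SAT, 12 and 5 in chow SAT, 8 and 10 in VAT and 5 and 9 in muscle (WT first). In these sorted cells muscle was thus no higher than fat, and per length *Rpl3l* was at most 0.24% of *Rpl3* in any library. Myofibre markers summed to 53.6 (WT) and 29.9 CPM (KO) in muscle and to between 17.2 and 180 CPM in the fat libraries. The comparison therefore says nothing of muscle fibres. *Rpl39l* had 0 and 0 counts in HFD SAT, 2 and 17 in chow SAT, 4 and 0 in VAT and 5 and 9 in muscle, at most 0.69% of *Rpl39*. The 17 counts in chow SAT KO were its highest value. A further second copy, *Rpl36al*, which is not listed here for restricted expression, was also low, at 6 to 41 counts, between 0.43% and 1.56% of *Rpl36a*. It overlaps *Gm49383* on the same strand over 24.5% of its exonic bases, and the part of this in its counts was not tested.

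Other second copies within the rule had at least 198 counts in every library. *Rpl22l1* was between 19.4% and 31.7% of *Rpl22* per length, with 2238 counts in chow SAT WT and 239 in the VAT library labelled WT. *Rpl7l1* was between 2.18% and 4.83% of *Rpl7*, with both VAT libraries highest. *Rps27l*, a p53 target, had 198 and 270 counts in HFD SAT, 382 and 275 in chow SAT, 260 and 363 in VAT and 592 and 387 in muscle. It did not follow *Rps27*: per length it was 1.57% and 2.81% of *Rps27* in chow SAT and 14.2% and 11.8% in VAT. In CPM per kb *Rps27l* stayed between 20.9 and 44.5, while the group's median went from 157 to 919. *Rps27rt*, a retrotransposed copy of *Rps27*, was between 41.8% and 137% of *Rps27* per length, but 91.1% of its 50-base stretches occur in other genes, *Rps27* first among them, so these values are uncertain. Its annotated start, printed above beside that of *Rps27*, has its own upstream bases and a pyrimidine tract at the start. The table also holds *Rps4l*, with 0 to 169 counts, but as a transcribed processed pseudogene outside the rule; *Rps4x*, its partner, had 7830 to 64411 counts.

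Genotype, tissue and diet were tested over the libraries by the quasi-likelihood test of edgeR, with p-values adjusted by Benjamini-Hochberg over 16971 genes, in 1 model with the 4 pairs and a genotype term. For genotype, 0 of 81 genes had an adjusted p under 0.05, where 0.00589% of all genes (1 gene) did. The median log2 difference was -0.47 beside 0.03 over all genes, with 5 of 81 higher in KO. Of the 81, 1 gene (1.23%), *Rps18*, had an unadjusted p under 0.05 (log2 difference -0.89, SE 0.37), against 1.63% of all genes. The lowest adjusted p over the 81 was 0.9996. DESeq2's Wald test also called 0 of 81, where it called 19 of all 16971 genes. Without chow SAT WT the median was -0.12.

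For muscle against the fat libraries, 0 of 81 genes passed, where 3.67% of all genes did. An unadjusted p under 0.05 was found for 0 of 81, against 13.8% of all genes. DESeq2's Wald test also called 0 of 81, where it called 1263 of all 16971 genes. The median was -0.23 beside 0.05. It turned to 0.07 without chow SAT WT. *Rps27l*, at 0.43 (SE 0.27, adjusted p = 0.624), was the highest and *Rpl36al*, at -0.75 (SE 1.24, adjusted p = 0.943), the lowest.

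For VAT against chow SAT, of 81 genes 80 were lower in VAT, with a median log2 difference of -1.53 beside -0.13 over all genes, and 74 had an unadjusted p under 0.05, against 20.7% of all genes. The size rested in part on chow SAT WT: without that library the median was -0.59 beside 0.10 over all genes. Without the VAT library labelled WT it was -0.87 beside -0.01. Fewer of the 81 had an unadjusted p under 0.05 in both of these fits. After adjustment 1 of 81 passed, where 5% of all genes did: *Rps27* was lower in VAT (log2 difference -2.19, SE 0.44, adjusted p = 0.0334). It had 31163 and 12494 counts in chow SAT (1929 and 775 CPM) and 2341 and 3948 in VAT (260 and 289 CPM). *Rpl22l1* (-1.80, SE 0.42, adjusted p = 0.0518) and *Rpl21* (-2.39, SE 0.56, adjusted p = 0.0532) missed the threshold narrowly. At an adjusted p under 0.1 the count was 16, where 1505 of all 16971 genes passed. DESeq2's Wald test called 62 of 81, all lower in VAT, where it called 2280 of all 16971 genes. Without a filter on low counts edgeR called 66 of 83, where it called 2100 of all 29627 genes. The median was -2.15 without chow SAT KO, -1.31 without HFD SAT WT and -1.50 without HFD SAT KO. Whether any of the 81 passed depended on which library was left out. T cell markers summed to 1731 and 4297 CPM in chow SAT and to 263 and 350 CPM in VAT, and macrophage markers to 957 and 2227 CPM against 16071 and 16461 CPM; their part in this difference was not tested.

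For HFD against chow in SAT, 0 of 81 genes passed, where 0% of all genes did. Of the 81, 6 (7.41%) had an unadjusted p under 0.05, against 9.29% of all genes. DESeq2's Wald test called 0 of 81, where it called 246 of all 16971 genes. The median was -0.75 beside -0.32 over all genes. It rested on chow SAT WT: without that library it was 0.21. *Rpl21* had the largest difference, -1.78 (SE 0.54, adjusted p = 0.489).

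The rest of the translation machinery was described with the same values, from lists of genes grouped by role. Elongation factors, which include *Eef1a1*, *Eef2* and the translationally controlled *Tpt1* as a further oligopyrimidine-tract mRNA, followed the group in chow SAT (median -1.31, 7 of 8 lower, 6 called lower) and in muscle (-0.44, 7 of 7 lower, none called). In HFD SAT and VAT their medians were 0.06 and 0.18. *Eef1a1* had 421018 and 160688 counts in chow SAT (-1.39) and 172599 and 99123 in muscle (-0.54). In chow SAT 11.5% of all genes were called lower and 19.1% higher, against which the counts of each list called there are to be read. Initiation factors had medians of 0.11 in HFD SAT, -0.77 in chow SAT (10 of 28 called lower), 0.13 in VAT and -0.34 in muscle. Ribosome biogenesis factors had 0.04, -0.64 (5 of 36 called lower, 1 higher), 0.08 and -0.09, with a share called lower in chow SAT that was near the background and a share called higher that was below it. Mitochondrial ribosomal protein genes, which serve the other ribosome of the cell, had -0.19, -1.40 (52 of 77 called lower), 0.21 and 0.09, so that in muscle their median was on the other side of 0 from the cytosolic group. Regulators of translation, among them *Mtor*, *Larp1* and *Myc*, had -0.03, 0.54, -0.14 and -0.04. In the model over all libraries 1 gene of these lists passed in any contrast: *Nop56*, a box C/D snoRNP protein of ribosome assembly, was lower in VAT than in chow SAT (log2 difference -1.31, SE 0.30, adjusted p = 0.0494). The differences between lists were not tested.

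**Figure D5:**
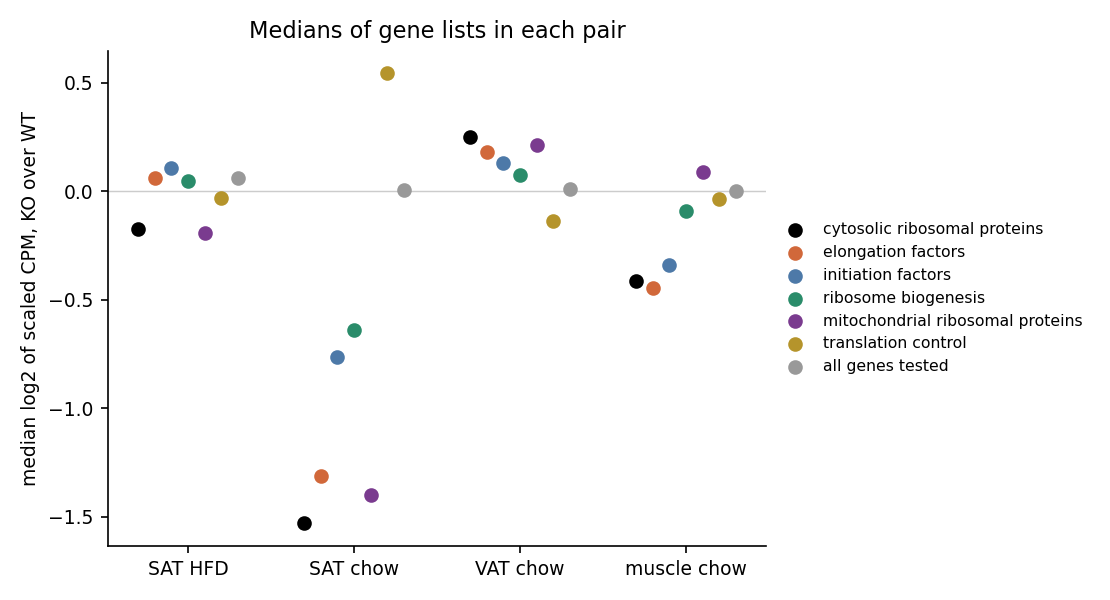
Median log2 ratio of scaled CPM, KO over WT (vertical axis), of each gene list in the 4 pairs, with 1 point per list and grey for all genes tested. In chow SAT the cytosolic ribosomal proteins (-1.53), mitochondrial ribosomal proteins (-1.40) and elongation factors (-1.31) lie below initiation factors (-0.77) and ribosome biogenesis (-0.64), and in muscle the mitochondrial list (0.09) lies apart from the cytosolic one (-0.42).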

How the data were processed

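Counts were made per Ensembl gene by the authors from 8 RNAseq libraries of sorted mG+ cells (1 per genotype, tissue and diet) and deposited as raw read counts with no normalization, beside a gene length in bases. The submitters' processing notes name HISAT2 2.0.5 and GRCm38 (mm10). The counting program, annotation release, strand setting and treatment of reads with several matches are not given in the sources used here. The labels give Rneasy columns and a SMARTER mRNA kit, the paper Trizol.

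Groups follow tissue, diet and genotype in the sample titles. Libraries were scaled by TMM over all genes (edgeR 4.0.16, R 4.3.3). Within a pair, log2 ratios used a prior count of 0.5 and exact conditional binomial 95% intervals (scipy 1.17.1), on genes averaging 10 counts or more, with a floor of 3 counts. These intervals cover counting error only, and PCR duplicates are not independent molecules. Across libraries, the quasi-likelihood test of edgeR, fitted with robust dispersions, used the pair as block (3 residual degrees of freedom) and Benjamini-Hochberg adjustment over 16971 genes. Its p-values measure the spread between single libraries, and nothing says which libraries share mice. Procedures were tested on simulated data. Alternatives were DESeq2 1.42.0 and other scalings, filters, prior counts, a length trend, denominators and left-out libraries. Named genes are paralogues and their partners, a few fixed examples, the 3 highest and lowest of each pair and of level, and up to 5 called per contrast. Other genes were named after their values were seen. A gene outside the 84 that was to be named is not reported here. Members and lists were chosen with earlier results of these data known. Pseudogenes were matched by name, shared 50-base stretches against GENCODE M21 transcripts, and start windows by symbol from RefSeq.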

Additional observations from a re-analysis of the deposited data

Results flagged for a closer look

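The log2 KO over WT ratio of the share of counts on the 84 genes was positive in VAT and negative in the other 3 pairs. In VAT the *Tert* counts were too few to give a direction. VAT exceeded HFD SAT by 0.35, chow SAT by 1.56 and muscle by 0.53. With 1 library a group these differences were not tested.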

How the results depend on the processing

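With 1 library a group, depth limits single genes (a floor of 3 counts) but not the group, and no alternative replaces replication. The medians of the 81 genes kept their direction in every pair under every scaling, filter, prior count and length correction. TMM over genes averaging 10 counts or more, chosen like the sums with pseudogenes after seeing the data, moved none of the values below. In HFD SAT the median was -0.11 with library totals. In chow SAT it was -1.42 with DESeq2 size factors, -1.30 with library totals, which also shifted all genes by 0.23, and -1.34 with upper quartiles. With the trend on gene length removed it was -0.996. There 38 genes were called in place of 75, without a share of all genes to set beside them. In VAT it was 0.21 with DESeq2 size factors, 0.19 with upper quartiles, 0.21 by TMM without the 84 genes and 0.12 without the length trend. In muscle it was -0.38, -0.25, -0.47 and -0.37 with DESeq2 size factors, library totals, upper quartiles and TMM without the 84 genes. The 1 call in VAT became 0 under the 4 other scalings (DESeq2 size factors, library totals, upper quartiles and TMM without the 84 genes) and the length correction, and sums with pseudogenes left 0 calls in HFD SAT, VAT and muscle. Among called values, summing reversed *Rpl34* in HFD SAT (-0.31) and *Rps10* in chow SAT (-1.57). It also changed the sign of values that were not called. Among them were *Rpl17* in muscle (0.56 to -0.50), *Rpl34* in muscle (0.45 to -0.42) and *Rps10* in VAT (-0.56 to 0.13). Of 1036 values of named genes and spreads, 737 stayed within their interval or within 1.5 times, 297 moved without changing a called direction and 2 reversed. The log2 ratio of the share of counts was -0.24 in HFD SAT and -0.29 in muscle over protein coding genes, -1.33 in chow SAT and -0.29 in muscle without mitochondrially encoded genes, and -0.11, 0.23 and -0.29 in HFD SAT, VAT and muscle with pseudogenes. Genes called in VAT against chow SAT numbered 66 in edgeR with no filter and 5 without the genotype term, 62 by DESeq2's Wald test, and in edgeR from 0 to 76 with single libraries left out. For muscle against fat 0 genes of the group were called in every fit of all 8 libraries. For HFD against chow this was also 0, apart from 3 of 83 under no filter, where 317 of all 29627 genes were called. With single libraries left out the medians ran from -0.41 to 0.07 for muscle against fat and from -1.33 to 0.21 for HFD against chow. For genotype no alternative called any of the 81. The causes of these shifts were not tested. No fit with a replicate block was made, because the labels carry no replicate numbers. The pairs in the model and in the sign-flip test are those of tissue and diet.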
